A study of Mus musculus with 8 samples.

Results

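The genes described here encode the subunits of the mitochondrial respiratory chain and of ATP synthase in mouse oocytes at the stage of nuclear envelope breakdown (NEBD). They were taken from the table of all genes by their symbols, and the rule gave 88 of 25574 genes. Of these, 37 belonged to complex I (Nduf genes), 4 to complex II (Sdh), 9 to complex III (Uqcr genes and Cyc1), 19 to complex IV (Cox4 to Cox8) and 18 to complex V (Atp5), and the remaining gene was Cycs. Not every symbol names a subunit. Cox4nb is an older symbol of Emc8, a component of the endoplasmic reticulum membrane complex, Atp5sl is an older symbol of Dmac2, a factor of complex I assembly, Atp5s encodes a coupling factor, Cox7a2l encodes a factor of supercomplex assembly and Atp5l-ps1 is a pseudogene. The mitochondrially encoded subunits were not analysed here, since none of the 13 was in the table used.

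SSP-profiling, a sucrose gradient method for scarce samples, was used to separate mRNAs bound to polysomes (P) from those that were not (NP), and the comparison of both datasets asked which mRNAs were associated with polysomes. The 4 NP and 4 P libraries came from 4 biological replicates, fractionated lysates of 200 oocytes each, so both datasets came from the same lysates. The CD1 mice were 8 weeks old and had received 5 IU of pregnant mare serum gonadotropin 46 h earlier. All oocytes were isolated in 100 µM IBMX, which blocks NEBD, cultured without it for 180 min and exposed to 0.1 mg/mL cycloheximide for 10 min, so no group without these agents was available. Of the 10 fractions of a gradient, 2 to 5, with the ribosomal subunits and monosomes, were pooled for NP and 6 to 10 for P. The top fraction was left out. The paper cannot exclude that it held some stored mRNA particles, which it theorises would be of short transcripts, but considers such a loss unlikely. No source used here states that an NP and a P library of the same number came from the same gradient. Each library pooled many oocytes and was scaled to its own total. Thus fewer oocytes with a transcript and less of it per oocyte cannot be told apart, and FPKM values give the place of an mRNA within its own pool of RNA.

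Complexes I, III and IV pass electrons from NADH to oxygen and pump protons across the inner mitochondrial membrane, while complex II feeds electrons from succinate and complex V uses the proton gradient to make ATP. Cytochrome c shuttles electrons between complexes III and IV. Most subunits are made in the cytoplasm from mRNAs of nuclear genes and are imported. The oocyte holds the mitochondria that the embryo inherits, and its transcription is silent from the end of growth until the embryonic genome is activated, so protein synthesis in this period relies on stored mRNAs that are recruited to or released from polysomes.

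The read number to which each library was scaled, recovered from the steps between the FPKM values, was 1299377 to 7594637 in NP and 2677946 to 4699328 in P. Among the 83 members above 0 in some library, the median number of reads was 38 to 265 in NP and 13 to 106 in P. It was lowest in P3, where 38 of these 83 members had under 10 reads and 15 had none. The 5 members at 0 in all libraries are not in these counts. Oocyte genes made up 2.10% to 2.98% of the summed FPKM in NP and 2.78% to 6.24% in P, and 17 of 18 had a mean above 1 FPKM in both datasets, Sohlh1 being at 0. Genes of somatic follicle cells made up 0.00322% to 0.0227% in NP and 0.00278% to 0.0142% in P. Of these 17 genes, 4 were above a mean of 1 FPKM in each dataset. The highest by mean were Cyp19a1, at 6.07 to 75.2 FPKM in NP and 0.19 to 62.6 FPKM in P, and Cyp11a1, at 0 to 46.4 FPKM and 0 to 17.9 FPKM. At 0 were 8 in NP and 9 in P, among them Foxl2, Has2 and Amhr2 in both. P3 and P4 had the fewest members above 0, and values without both, a choice made after the data were seen, are given beside results that moved most. At an unadjusted p below 0.05, 7 members were then higher in NP, beside 5.54% of all genes, and 3 in P, beside 1.91%, whereas 14 and 2 members were so with all libraries.

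Respiratory chain mRNAs were among the well represented transcripts of both datasets. The median over the members of the mean FPKM was 24.8 in NP and 18.6 in P, against 5.75 and 3.99 over all genes tested, and together they made up 0.882% to 2.40% of the summed FPKM in the NP libraries and 0.70% to 2.26% in the P libraries. The most abundant member was Cox4i1, the isoform of complex IV subunit 4 found in most tissues, which was measured at 2977, 4729, 1086 and 4683 FPKM in NP1 to NP4 and at 1141, 2714, 909 and 5727 FPKM in P1 to P4. It exceeded every other member in 8 of 8 libraries. Gm20388, which spans the same locus on the same strand, was at 3.72 to 56.0 FPKM in NP and at 0.947 to 14.9 FPKM in P. At the other end, 5 members were at 0 in all libraries and did not enter the fit. These were Cox4i2, Cox7a1, Cox7b2, Cox8b and Cox8c, all isoforms that are known from particular tissues such as lung, heart and skeletal muscle or testis. A count of 0 allows up to 3 reads, which at the annotated lengths of these genes is 0.501 to 6.41 FPKM in NP and 0.81 to 3.11 FPKM in P, depending on gene and library.

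**Figure D1:**
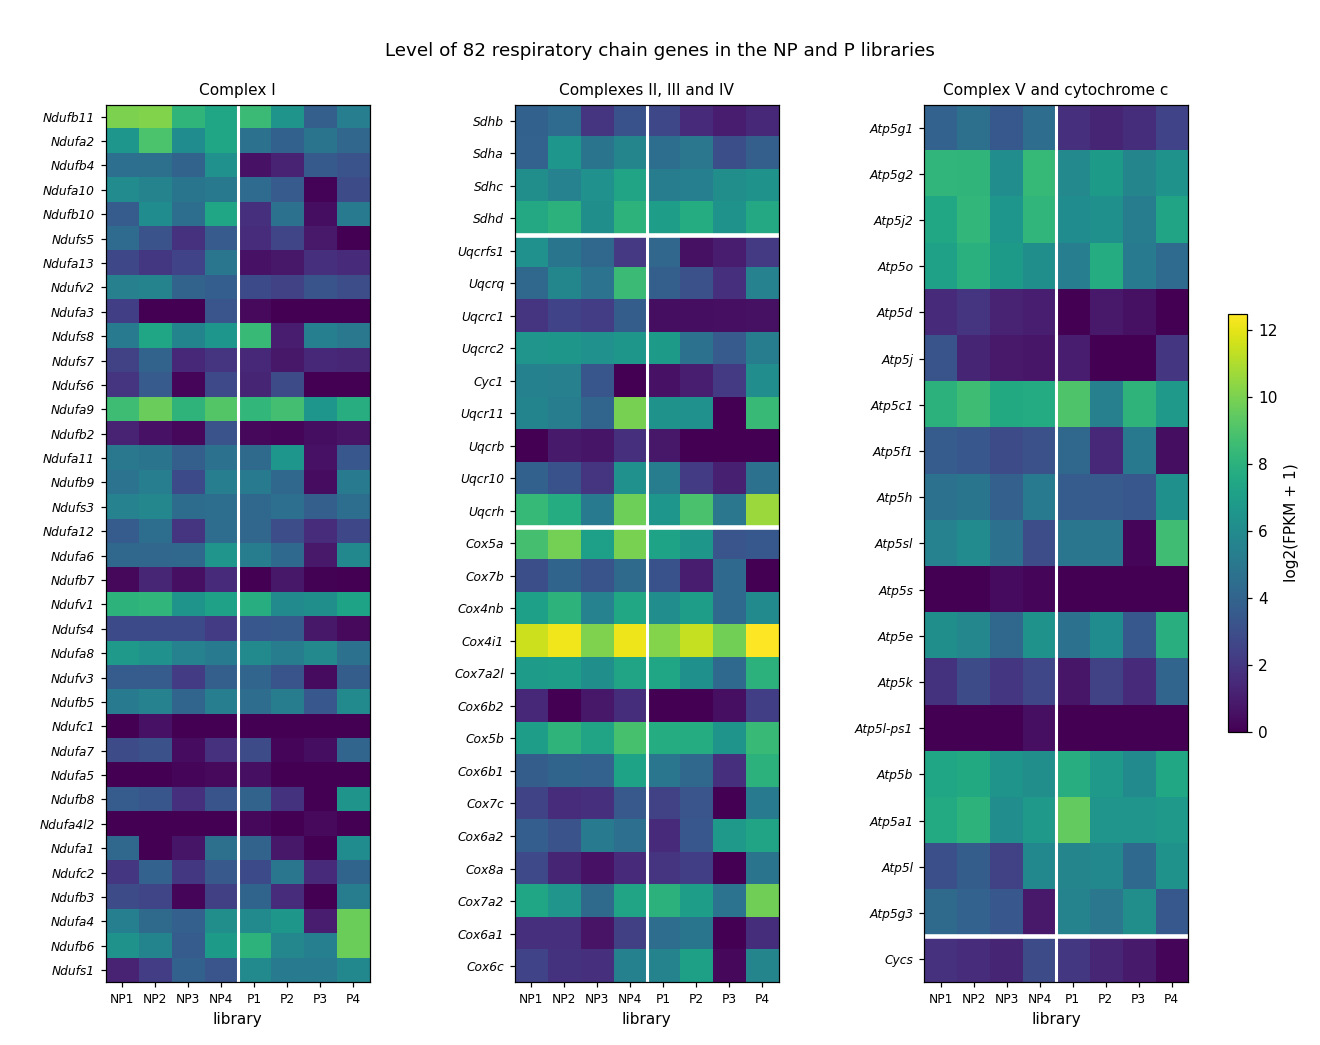
Level of 82 of the 83 members that entered the fit, as log2(FPKM + 1), in each NP and P library, ordered within each complex by the log2 fold change of P over NP from the lowest to the highest. Cox4i1 stands out in every library, and the P3 column is dark for many members of complexes I and III.

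No member passed the test. Differences between P and NP were tested with limma on log2(FPKM + 1) and adjusted over all genes by the Benjamini-Hochberg procedure with a threshold of 0.1, and 0 of the 83 members were called, beside 0.021% of the 14292 genes tested (3 genes). The lowest adjusted p among members was 0.344, for Ndufa2. At an unadjusted p below 0.05, 14 members were higher in NP, beside 9.47% of all genes, and 2 were higher in P, beside 0.476% of all genes. In 8 members all NP libraries lay above all P libraries, beside 5.92% of all genes, and in 1 member all P libraries lay above all NP libraries, beside 0.357%. A fold change below 0 on the log2 scale was found for 64 of 83 members and for 71.4% of all genes. Changes below −1 were found for 29 members, beside 25.8% of all genes, and above 1 for 7 members, beside 4.14%. The median log2 fold change was −0.64 over the members and −0.39 over all genes. With 0.1 FPKM added in place of 1, these medians were nearly equal, at −0.85 and −0.83. Over genes with a mean above 1 FPKM in at least 1 dataset they were −0.69 and −0.58. This order turned without P3, to −0.29 over the members and −0.39 over all genes, and with voom on recovered reads, to −0.72 and −0.83, where 7 members were higher in NP at an unadjusted p below 0.05, beside 12.1% of all genes.

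This tilt of all genes towards NP depends on the scaling. After quantile normalization the median log2 fold change of all genes was −0.02, with 7 members at an unadjusted p below 0.05 higher in NP, beside 4.04% of all genes, and 3 higher in P, beside 2.55%. With library medians centred it was 0.57, with 3 members higher in NP, beside 1.24% of all genes, and 9 higher in P, beside 19% of all genes. The values of the complexes below are therefore given relative to the median of all genes as well.

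**Figure D2:**
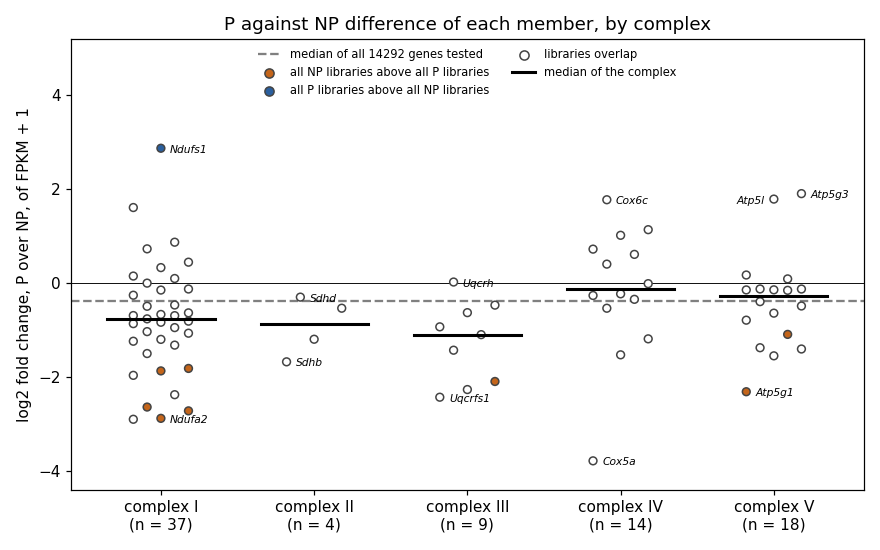
Each point is the log2 fold change of P over NP for 1 member, by complex. Black bars are the medians of the complexes, from −1.10 in complex III to −0.12 in complex IV, and the dashed line is the median of all genes at −0.39. Filled points mark the members whose NP and P libraries did not overlap, 8 with NP above P and 1, Ndufs1, with P above NP.

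Complex I oxidizes NADH, and its 37 members had a median log2 fold change of −0.76, which was −0.37 relative to that of all genes. Of these, 25 lay below and 12 above the median of all genes. The 7 core subunits, which are conserved from bacteria, had a median of −1.20 and the 28 accessory subunits one of −0.73, with Ndufa4 and Ndufa4l2 in neither list. The median of complex I was −0.54 without P3 and −1.10 without P1. Without both P3 and P4 it was −0.35, beside −0.33 for all genes. The only core subunit above 0 was also the member with the highest value of all. Ndufs1 (chr1:63143596-63176822, GRCm38), the largest subunit of the peripheral arm with iron-sulphur clusters, was measured at 1.37, 3.78, 13.9 and 8.69 FPKM in NP1 to NP4 and at 59.2, 35.6, 35.6 and 56.9 FPKM in P1 to P4. Every P library was above every NP library. The log2 fold change was 2.87 (SE 0.74, adjusted p = 0.376, limma) and remained between 2.40 and 3.28 when any 1 library was left out. Ndufs1 made up 0.179% to 4.05% of the summed FPKM of the 7 core subunits in NP and 6.88% to 17.5% in P. The locus is overlapped on the opposite strand by Gm11602, which was at 0.199 to 6.43 FPKM in NP and at 0.396 to 92.6 FPKM in P with the highest value in P4, and it is not known whether strand was used in counting.

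The other core subunits were not placed like Ndufs1. Ndufv2, a subunit of the NADH-oxidizing module, was at 42.8, 47.6, 14.8 and 12.2 FPKM in NP1 to NP4 and at 5.99, 4.55, 8.48 and 6.76 FPKM in P1 to P4, with no overlap. Its log2 fold change was −1.82 (SE 0.73, adjusted p = 0.45, limma). Its partner in the same module, Ndufv1, which binds NADH and was looked at after its values were seen, ranged from 88.6 to 297 FPKM in NP and from 61.7 to 222 FPKM in P, and these ranges overlapped. Ndufs1 therefore differed in sign from 6 of 6 other core subunits, and from 4 of 6 with library medians centred, although the difference between these genes was not tested.

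Among the accessory subunits of complex I, the members with the lowest values were Ndufb11 and Ndufa2. Ndufa2, a small subunit of the peripheral arm, was measured at 95.3, 502, 66.1 and 165 FPKM in NP1 to NP4 and at 24.6, 13.6, 27.1 and 16.3 FPKM in P1 to P4, so the lowest NP library was above the highest P library. Its log2 fold change was −2.88 (SE 0.69, adjusted p = 0.344, limma), between −3.28 and −2.31 with any 1 library left out. The gene shares 60 bases with Tmco6 on the opposite strand, and Tmco6 ranged from 127 to 295 FPKM in NP and from 159 to 391 FPKM in P. Ndufb11, a subunit of the membrane arm, was at 1043, 1138, 289.9 and 168 FPKM in NP and at 369.6, 88.6, 12.9 and 39.5 FPKM in P. Its ranges overlapped because P1 was above NP3 and NP4, and the log2 fold change was −2.90 (SE 0.93, adjusted p = 0.405, limma), or −1.43 without both P3 and P4.

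Further accessory subunits had all NP libraries above all P libraries. Ndufb4, of the membrane arm, was at 22.8, 23.7, 14.6 and 79.9 FPKM in NP and at 0.546, 1.33, 10.6 and 8.3 FPKM in P, a log2 fold change of −2.72 (SE 0.89). Ndufa10, also of the membrane arm, was at 64.9, 47.1, 28.2 and 32.2 FPKM in NP and at 19.9, 10.8, 0.099 and 6.41 FPKM in P, a log2 fold change of −2.64 (SE 0.89) that was −1.77 without P3 and −1.41 without both P3 and P4. For Ndufa13, which is also known as Grim19, the values were 5.54, 3.1, 4.64 and 28.6 FPKM in NP and 0.514, 0.753, 2.35 and 1.8 FPKM in P, and NP4 stood above the other NP libraries. Its locus is overlapped on the same strand by Yjefn3, which was at 3.10, 0, 7.14 and 0 FPKM in NP1 to NP4 and at 0 in every P library. The part of Yjefn3 in the Ndufa13 values was not tested. Ndufb4, Ndufa10 and Ndufa13 did not pass the test, with adjusted p values in limma of 0.405, 0.416 and 0.511.

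On the other side, Ndufb6, an accessory subunit of the membrane arm, was at 84.6, 49, 11.3 and 112 FPKM in NP1 to NP4 and at 268, 54.4, 41 and 815 FPKM in P1 to P4. P4 held the highest and NP3 the lowest value, the ranges overlapped and the log2 fold change was 1.61 (SE 0.95, adjusted p = 0.569, limma), between 0.79 and 2.22 with any 1 library left out. Ndufb6 shares 350 bases with 2010003O02Rik on the opposite strand. That gene ranged from 2.09 to 32.4 FPKM in NP and from 4.27 to 196 FPKM in P, also with NP3 lowest and P4 highest. The most abundant accessory subunit by mean FPKM besides Ndufb11 was Ndufa9, which binds a nucleotide cofactor at the junction of both arms, with 274 to 796 FPKM in NP and 92.4 to 441 FPKM in P. Ndufa4, which was first described with complex I and is now counted with complex IV, was at 41.4, 18.8, 13.4 and 70.9 FPKM in NP and at 61.8, 97, 0.914 and 818 FPKM in P, so that P3 and P4 were the lowest and the highest of all 8 libraries. Ndufa4l2, its paralogue known from hypoxic cells, had values above 0 in P1 and P3 only, of 0.222 and 0.234 FPKM.

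**Figure D3:**
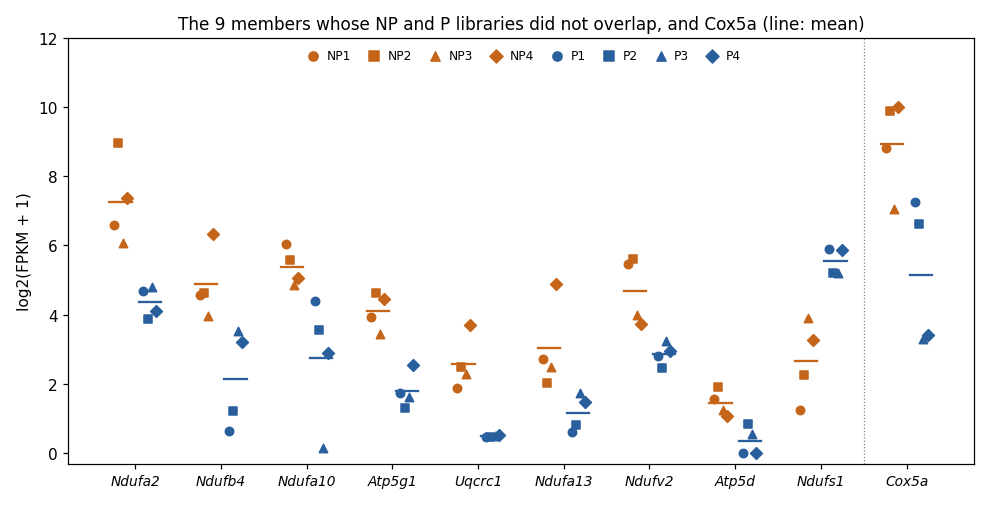
Level of the 9 members with no overlap between NP and P, as log2(FPKM + 1), with 1 symbol per replicate number and lines for the mean of 4 libraries, and of Cox5a, the member with the lowest log2 fold change, to the right of the dotted line. Ndufs1 is the only one with P above NP, and P1 and P2 of Cox5a lie above P3 and P4.

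The members of complex II, which is also succinate dehydrogenase of the citric acid cycle, had a median log2 fold change of −0.87, which was −0.48 relative to that of all genes, and 4 of 4 were below 0, or 2 of 4 with library medians centred. Sdha, the flavoprotein that oxidizes succinate, was at 14.4, 94.5, 27.5 and 50 FPKM in NP1 to NP4 and at 21.9, 30.1, 6.95 and 12.6 FPKM in P1 to P4. Sdhb, the iron-sulphur subunit, was at 14, 19.9, 2.82 and 8 FPKM in NP and at 5.51, 1.95, 1.005 and 1.67 FPKM in P, and only P1 reached the range of NP. Sdhc and Sdhd, which anchor the enzyme in the membrane, ranged from 45 to 158 and from 74.8 to 266 FPKM in NP and from 37.8 to 80.7 and from 85.8 to 211 FPKM in P. The log2 fold changes were −1.20 (SE 0.75) for Sdha, −1.68 (SE 0.88) for Sdhb, −0.54 (SE 0.60) for Sdhc and −0.30 (SE 0.59) for Sdhd. Thus both anchor subunits differed between the datasets by less than 1 SE, while the adjusted p of Sdhb in limma was 0.533.

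Complex III passes electrons from ubiquinol to cytochrome c. Its 9 members had the lowest median of the complexes, −1.10, which was −0.71 relative to that of all genes, and 8 lay below the median of all genes. The median of complex III was −1.99 without P4 and lay between −1.99 and −0.93 with any 1 library left out. Without both P3 and P4 it was −0.78, beside −0.76 for complex II. Uqcrfs1, the Rieske iron-sulphur protein, was at 79.3, 28.2, 17.4 and 3.28 FPKM in NP1 to NP4 and at 16.5, 0.458, 0.99 and 3.29 FPKM in P1 to P4. NP4 and P4 were almost equal, P1 lay next to NP3, and the log2 fold change was −2.43 (SE 1.06, adjusted p = 0.479, limma). Uqcrq, a small accessory subunit, was at 17.1, 51.7, 26.1 and 363 FPKM in NP and at 12.6, 7.5, 2.21 and 46.1 FPKM in P, with NP4 far above the others and a log2 fold change of −2.27 (SE 1.01, adjusted p = 0.487, limma).

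The core proteins Uqcrc1 and Uqcrc2 differed in abundance. Uqcrc1, named after its values were seen, was at 2.65, 4.65, 3.9 and 11.9 FPKM in NP and at 0.386, 0.377, 0.408 and 0.451 FPKM in P, and all P libraries lay below all NP libraries. The P values rest on 3, 2, 3 and 2 recovered reads, so their narrow range is that of a few reads. Its log2 fold change was −2.10 (SE 0.73, adjusted p = 0.416, limma). Its partner Uqcrc2 was at 90.1, 96.1, 78.8 and 97.3 FPKM in NP and at 111, 24.4, 10.9 and 38 FPKM in P, so P1 exceeded every NP library and the other P libraries lay below all of them. Cyc1, the haem-carrying subunit that hands electrons to cytochrome c, was at 44.6, 42.5, 9.32 and 0 FPKM in NP and at 0.535, 1.04, 3.39 and 69.4 FPKM in P. NP4 was at 0 and P4 was the highest of all 8 libraries, and the log2 fold change of −1.10 (SE 1.39) was −2.76 without both P3 and P4. Uqcrh, the hinge protein, was the most abundant member of complex III by mean FPKM. It had 33.3 to 862 FPKM in NP and 30 to 1568 FPKM in P and a log2 fold change of 0.02 (SE 1.15). Uqcr11 ranged from 15.6 to 967 FPKM in NP and from 0 to 354 FPKM in P, with the highest values in NP4 and P4. Uqcr10 ranged from 2.82 to 77.8 FPKM in NP and from 1.16 to 39 FPKM in P, with the highest values in NP4 and P1. Cycs, the somatic form of cytochrome c, was at 2.48, 2.03, 1.49 and 6.34 FPKM in NP and at 3.06, 1.56, 0.859 and 0.11 FPKM in P, a low level in both.

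Complex IV reduces oxygen to water, and its 14 measured members had a median log2 fold change of −0.12. This was 0.27 relative to that of all genes, and 10 lay above and 4 below the median of all genes. The median ranged from −0.66 without P4 to 0.43 without NP4, so its sign depended on single libraries, and it was 0.19 without Cox4nb and Cox7a2l. Cox5a (chr9:57521232-57532424, GRCm38), a haem-free subunit on the matrix side, had the lowest log2 fold change of all members. It was measured at 449, 940.2, 131 and 1025 FPKM in NP1 to NP4 and at 152, 96.7, 8.8 and 9.74 FPKM in P1 to P4. P1 was above NP3, the other P libraries were below all NP libraries, and the log2 fold change was −3.79 (SE 0.95, adjusted p = 0.376, limma), between −4.49 and −3.17 with any 1 library left out and −1.999 without both P3 and P4. Cox5b, a zinc-binding subunit on the same side, was at 123, 277, 154 and 472 FPKM in NP and at 211, 213, 86.2 and 337 FPKM in P, a log2 fold change of −0.23 (SE 0.62). Both subunits belong to the same enzyme, but the difference between their fold changes was not tested.

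Several small subunits of complex IV lay on the P side. Cox6c was at 4.74, 2.59, 2.27 and 43.6 FPKM in NP1 to NP4 and at 47.7, 138, 0.189 and 50 FPKM in P1 to P4. NP4 and P3 stood apart from the rest of their datasets, and the log2 fold change was 1.77 (SE 1.32, adjusted p = 0.644, limma), between 0.95 and 3.24 with any 1 library left out and 3.47 without both P3 and P4. Cox7a2, the form of subunit 7A found in most tissues, was at 161, 91.9, 18.9 and 157 FPKM in NP and at 264, 123, 26.6 and 872 FPKM in P, with a log2 fold change of 1.02 (SE 0.96), between 0.22 and 1.89 with any 1 library left out. Cox7b was on the NP side with 6.97, 15.2, 8.49 and 18.8 FPKM in NP and 7.89, 1.03, 18.3 and 0 FPKM in P, and P3 was nevertheless close to the highest NP library. Cox4i1 had a log2 fold change of −0.54 (SE 0.70), within the spread between replicates.

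Complex V makes ATP, and its 18 members had a median log2 fold change of −0.28, 0.11 relative to that of all genes, with 9 members on each side of the median of all genes. It was −0.14 without P3, −0.83 without P4, −0.64 without NP4 and −0.62 without NP3. The 5 subunits of the F1 part, the catalytic head with its central stalk, had a median of −0.15 and the 10 subunits of the peripheral stalk and membrane part one of −0.64, with Atp5s, Atp5sl and Atp5l-ps1 in neither list. The catalytic subunits were abundant in both datasets. Atp5a1 was at 196, 270.3, 69.1 and 105 FPKM in NP1 to NP4 and at 725, 90.7, 90.6 and 103 FPKM in P1 to P4, and P1 stood above the other P libraries. Atp5b, named after its values were seen, ranged from 71 to 194 FPKM in NP and from 61.9 to 219.8 FPKM in P, and Atp5c1, the central stalk subunit, from 192 to 390.0 and from 43.2 to 539 FPKM. Atp5d, of the same stalk and also chosen after its values were seen, was at 1.95, 2.79, 1.35 and 1.09 FPKM in NP and at 0, 0.809, 0.467 and 0 FPKM in P, with no overlap at a level of few reads. Atp5l, a membrane subunit near which ATP synthase dimers form, was at 7.36, 12, 4.3 and 56.2 FPKM in NP and at 50.4, 55.5, 18.5 and 81.8 FPKM in P, and only NP4 was within the range of P. Its log2 fold change was 1.79 (SE 0.81, adjusted p = 0.495, limma).

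Subunit c, which forms the rotating ring of ATP synthase, is encoded by a family of genes whose mature proteins are the same. The difference between these genes was not tested. Atp5g1 was at 14.3, 23.8, 9.82 and 20.8 FPKM in NP1 to NP4 and at 2.34, 1.46, 2.06 and 4.79 FPKM in P1 to P4, with no overlap and a log2 fold change of −2.32 (SE 0.77, adjusted p = 0.416, limma). Atp5g2 was at 302, 289.7, 69.5 and 332 FPKM in NP and at 57.4, 111, 50.5 and 82.1 FPKM in P, where NP3 was far below the other NP libraries and below P2 and P4, and its log2 fold change was −1.55 (SE 0.63, adjusted p = 0.451, limma). Atp5g3 was at 19.2, 14.5, 9.45 and 0.785 FPKM in NP and at 46.7, 29.7, 71.5 and 9.76 FPKM in P, a log2 fold change of 1.90 (SE 0.90, adjusted p = 0.505, limma) that stayed between 1.14 and 2.44 with any 1 library left out. As a share of the summed FPKM of the family, which does not depend on the scaling of a library, Atp5g2 made up 78.3% to 93.9% in NP and 40.7% to 84.95% in P. Atp5g3 made up 5.74%, 4.41%, 10.6% and 0.222% in NP1 to NP4 and 43.9%, 20.9%, 57.6% and 10.1% in P1 to P4. The NP3 and P4 values of Atp5g3 were nearly equal and the other P libraries were above all NP libraries. The family shares are given as a description, since they were chosen among many with earlier results known.

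**Figure D4:**
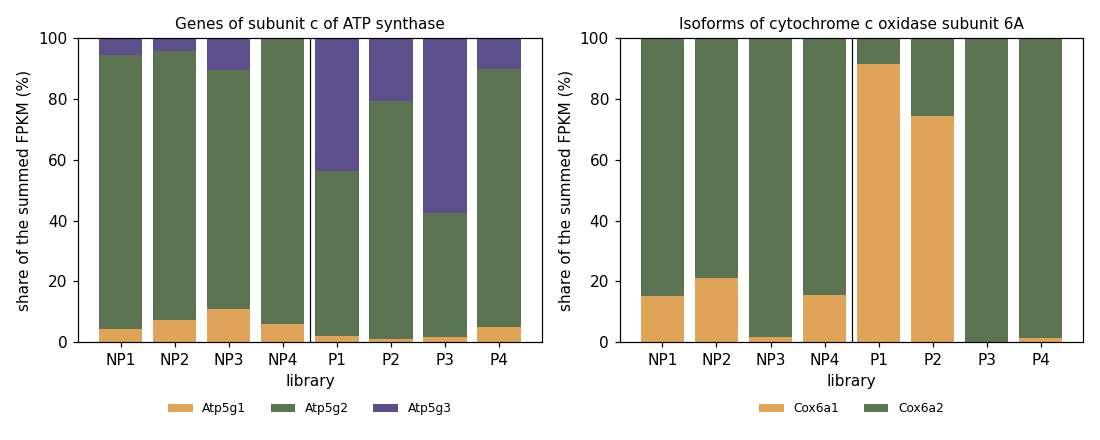
Share of each gene in the summed FPKM of its family, in percent, for the genes of subunit c of ATP synthase (left) and for both isoforms of complex IV subunit 6A (right), in each library. Atp5g3 takes 0.222% to 10.6% in NP and 10.1% to 57.6% in P, while the share of Cox6a1 is 91.5% and 74.4% in P1 and P2 and at most 1.34% in P3 and P4.

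The isoforms of complex IV subunits were in most families those found in most tissues. Cox4i1, Cox7a2, Cox7b and Cox8a gave 100% of the FPKM of their families in every library in which the family had a value, and Cox6b1 gave 84.5% to 100% beside Cox6b2, which is known from testis. Some of these shares rest on few recovered reads. Cox8a had 1 to 10 reads in the NP libraries and 0 to 40 in the P libraries. In P3, Cox6b1 had 5 reads and Cox6b2 had 1. Subunit 6A was the exception. Cox6a2, the isoform known from heart and skeletal muscle, was at 12.4, 8.19, 33 and 22.6 FPKM in NP1 to NP4 and at 1.94, 9.48, 109 and 157 FPKM in P1 to P4, whereas Cox6a1, the isoform of most other tissues, was at 2.23, 2.19, 0.587 and 4.13 FPKM and at 20.9, 27.5, 0 and 2.13 FPKM. Cox6a2 thus made up 78.9% to 98.3% of this family in NP, where NP2 had 7 recovered reads of Cox6a2 and 2 of Cox6a1. In P the family was split, with 8.49% and 25.6% in P1 and P2 and 100% and 98.7% in P3 and P4, so P replicates disagreed on the main isoform, and without both P3 and P4 the log2 fold change was −1.67 for Cox6a2 and 3.05 for Cox6a1. Cox6b1 was at 11.79, 15.2, 14.4 and 149.9 FPKM in NP and at 28.7, 17.3, 2.23 and 265 FPKM in P, with NP4 and P4 as the highest libraries.

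Complexes were next compared within each library, where the scaling of the library enters only through the added 1 FPKM, which weighs most where a median is low, as for complex I in P3 (0.85). The median log2(FPKM + 1) of complex IV minus that of complex I was −0.44, −0.11, 1.34 and 1.84 in NP1 to NP4 and 1.22, 2.31, 2.93 and 1.74 in P1 to P4. The mean of this difference was 0.66 ± 1.11 over the NP libraries and 2.05 ± 0.74 over the P libraries (SD, n = 4 each), and NP3 and NP4 lay within the range of P. The same difference for complex V minus complex I was 0.34, 0.61, 0.83 and 0.27 in NP and 0.77, 1.67, 3.02 and 1.23 in P, where NP3 exceeded P1. The difference between the median fold changes of complexes IV and I was 0.64. It was 0.80 without P3, 0.19 without P4, 0.22 without both, 0.39 without NP2, 1.04 without P1 and 1.12 without NP4. The NP and P libraries thus overlapped on both measures when taken as unpaired. Between libraries of the same number, not known to share a gradient, complex V minus complex I was higher in P in 4 of 4. Complex IV minus complex I was so in 3 of 4. The size of the contrast between complexes IV and I depended on single libraries, with the largest moves without NP4 and without P4.

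**Figure D5:**
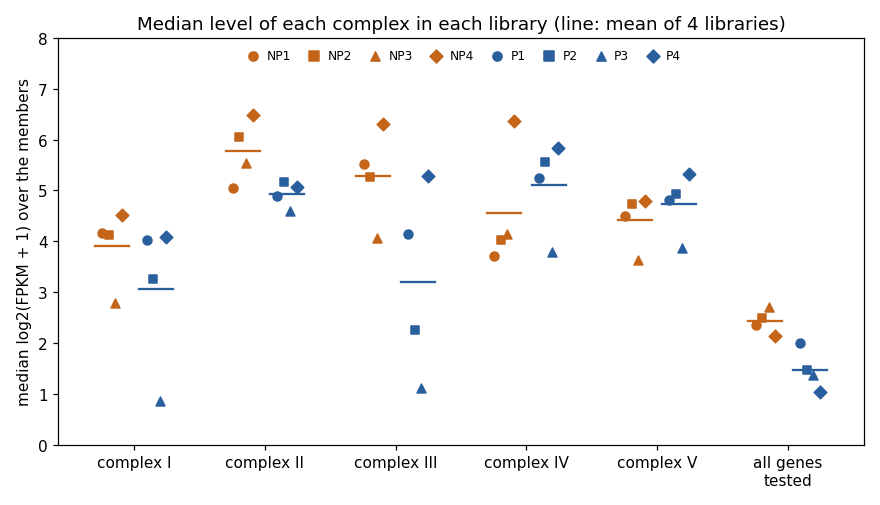
Median log2(FPKM + 1) over the members of each complex, and over all genes tested, in each library, with 1 symbol per replicate number and lines for the mean of 4 libraries. The median of complex I in P3 is 0.85 against 3.25 to 4.09 in the other P libraries, while the medians of complex IV span 3.71 to 6.36 in NP and 3.78 to 5.83 in P.

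Assembly factors, which build the complexes without being part of them, were taken as other genes of the same pathway. Of 51 listed factors, 31 were in the table and 29 entered the fit, with a median log2 fold change of −0.73. None was called, 6 had an unadjusted p below 0.05 with the higher level in NP, beside 9.47% of all genes, and 0 had one with the higher level in P, beside 0.476%. The lowest was Ndufaf2, an assembly factor of complex I, at 43.4, 15.9, 9.11 and 13.8 FPKM in NP1 to NP4 and at 1.25, 4.13, 2.98 and 0 FPKM in P1 to P4, with no overlap and a log2 fold change of −2.81 (SE 0.88, adjusted p = 0.405, limma). Bcs1l, which inserts the Rieske protein into complex III, was at 37.9, 34.8, 3.51 and 26 FPKM in NP and at 3.98, 12, 1.64 and 0 FPKM in P, a log2 fold change of −2.49 (SE 1.004, adjusted p = 0.45, limma). These genes were named after their values were seen. The medians by complex were −0.30 for 9 factors of complex I, 0.02 for 2 of complex II, −0.82 for 2 of complex III, −0.76 for 13 of complex IV and −0.96 for 3 of complex V.

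Members were short genes. The merged exon length accounted for the FPKM steps of 42 members, with a median of 1414 bp, against 3500.5 bp over the 6876 genes tested for which it did. With the length searched from the steps for the other 41 members, which can be off by a whole factor, the median was 1287 bp over 83 members and 696 bp over those of complex IV. Across the members, the log2 fold change and log2 length correlated at −0.09 (Pearson's r across 83 genes, which share libraries and are not independent). Deviations of single libraries from their dataset mean went with length at −0.28 in NP4 and −0.28 in P4. They did so at 0.25 in NP3, 0.21 in NP2 and 0.19 in P3, and at −0.01 to 0.07 in NP1, P1 and P2. Over the 6876 genes the values were −0.03 in NP4, −0.09 in P4, 0.19 in NP3, −0.09 in NP2 and 0.15 in P3. NP4 and P4 were thus higher for the shorter members, and the part of this in the values above was not tested.

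Some members also held sequence features that the symbol rule did not use. In the promoters of RefSeq (GRCm38.p6, 250 bases before to 50 after the start), 70 members were matched. The motif of nuclear respiratory factor 1 (NRF1), GCGCA, 1 base of any kind and GCGC, was searched for on either strand. It was found in 17 of these members, 24.3%, against 5.19% of 27026 genes. Those were all genes with a listed promoter, whether tested here or not. AAGATGGCG, the letters of YY1, was found in 8 (11.4% against 1.64%) and CCGGAAGT, the letters of GABP, in 5 (7.14% against 4.31%). NRF1 and GABP are transcription factors known to act on respiratory chain genes. Windows of 30 bases upstream of the start are shown for members of complexes I, II, IV and V described above, 5′ to 3′ on the strand of the gene, with the NRF1 letters in capitals. For Atp5g2 the RefSeq start used lies upstream of the counted locus (chr15:102663014-102667749) and outside it.
Ndufb4, chr16:37654540-37654569 (−): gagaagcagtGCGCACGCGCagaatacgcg
Sdha, chr13:74350319-74350348 (−): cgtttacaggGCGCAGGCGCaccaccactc
Cox6a1, chr5:115349101-115349130 (−): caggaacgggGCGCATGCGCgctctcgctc
Atp5g2, chr15:102671070-102671099 (−): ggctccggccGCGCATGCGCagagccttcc

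At the other end of the transcript, TTTTAT, the letters of the cytoplasmic polyadenylation element, through which stored mRNAs are known to be polyadenylated in maturing oocytes, was searched for in the last 100 bases of the transcripts. It was found in 6 of 81 members, 7.41%, against 14.4% of the 12806 genes tested with such a sequence. These were Atp5s, Cox5a, Cox6a2, Ndufa2, Ndufc2 and Ndufs4. The median log2 fold change was −0.39 for all genes with the element and −0.40 for all genes without it. The sites of the members with a mean above 1 FPKM are shown, apart from Ndufa2, with the element in capitals (GRCm38).
Cox5a, chr9:57532330-57532359 (+): tgcctggaaatgTTTTATttgaacaaattt
Cox6a2, chr7:128205469-128205498 (−): cctgcattttcaTTTTATtttttaaaaatt
Ndufc2, chr7:97407713-97407742 (+): atattttctgagTTTTATgggattttctgt
Ndufs4, chr13:114287835-114287864 (−): ccaatggagatcTTTTATtcttaggaaata
Of the genes shown, Cox5a had the lowest log2 fold change of all members (−3.79), Ndufs4 was at −0.64 (SE 0.96), and Ndufc2 and Cox6a2 lay above 0 at 0.44 (SE 0.93) and 0.61 (SE 1.12). AATAAA, the polyadenylation signal, began 58 and 30 bases after the first T of TTTTAT in Cox5a and Ndufs4. Within the searched bases it did not follow TTTTAT in Cox6a2 and Ndufc2. TTTTAT was thus found in members on both sides of the median of all genes, and the part of AATAAA in this was not tested.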

How the data were processed

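The authors trimmed reads with Trim Galore 0.4.1, mapped them with HISAT2 2.0.5 to GRCm38 and deposited FPKM values per gene and library, made in Seqmonk and not log-transformed. The use of strand and of multi-mapped reads is not given in the sources used, so genes with close copies or overlapping genes (20 members) are uncertain. Deposited tables of enriched genes and of DESeq2 results, which hold fold changes and p-values of the authors, were not used.

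Groups and replicate numbers came from sample titles. limma 3.58.1 (R 4.3.3, 2-sided, eBayes with trend) was fitted to log2(FPKM + 1) of the 14292 genes whose mean in NP or P exceeded 0.1 FPKM, so fold changes are on the log2(FPKM + 1) scale and understate those of low genes. Reads were recovered from FPKM steps with merged exon lengths of GENCODE M21 (7613 genes) or a searched length (7971 genes, which can be off by a whole factor), within 0.01 of a whole number, and intervals from them cover counting error only. The limma fit was tested on simulated log2 values with known changes, placed in genes of higher level and lower spread. Members and gene lists were chosen with earlier results of these data known. Genes named were, in each complex, those with the 2 highest and 2 lowest fold changes above a mean of 1 FPKM, the 3 most abundant, members with no overlap and a mean above 10 FPKM, complex II, Cyc1, Cycs and isoform families, of which 1 gene is not reported here. Alternatives changed the pseudocount, the filter, the scaling, the model, the replicate block, the assignment of genes and the libraries.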

Additional observations from a re-analysis of the deposited data

Results flagged for a closer look

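In groups of 4 libraries, 98 values (the named members and the medians of the complexes, in each dataset) were examined for a single library far from the others, by Dixon's criterion at the 95% level. It was met 4 times, and chance alone flags about 1 in 20 groups. Atp5a1 was at 725 FPKM in P1, against 90.6 to 103 FPKM in the other P libraries. Atp5g2 was at 69.5 FPKM in NP3, against 289.7 to 332 FPKM in the other NP libraries. Cox6b1 was at 150 FPKM in NP4, against 11.79 to 15.2 FPKM in the other NP libraries. The median log2(FPKM + 1) of complex IV was 6.36 in NP4, against 3.71 to 4.13 in the other NP libraries. The part of amplification, depth or length in these values was not tested.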

How the results depend on the processing

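No member was called under any of the 16 alternatives run across all genes, where the lowest adjusted p was 0.108 (limma), for both Ndufs1 and Ndufa4l2 with library medians centred, although Ndufa4l2 had 1 recovered read in each of 2 libraries. The number of all genes called was 5 with a pseudocount of 0.1, 5 with a filter at 1 FPKM, 0 without a filter, 0 with centred medians, 0 after quantile normalization and 186 with voom on recovered reads, and 0 to 5 with any 1 library left out. With the replicate block it was 1, and 19 members had an unadjusted p below 0.05 with the higher level in NP, beside 11.3% of all genes, and 4 with the higher level in P, beside 0.812%. Same-numbered libraries deviated together with r = 0.139, 0.0518, 0.251 and 0.155, against −0.135 to 0.136 for libraries of different numbers. NP1, NP3 and NP4 correlated best with the P library of their own number, and NP2 with P1 (0.136). The numbers were not taken as pairs in the main fit, since no source used states that they are. Between libraries of the same number, complex V minus complex I was higher in P in 4 of 4 and complex IV minus complex I in 3 of 4.

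Centring on library medians moved the median of complex II to 0.090 and that of complex V to 0.68. It turned the log2 fold changes of Atp5c1 (0.32), Cox4i1 (0.42), Cox5b (0.73), Cox6b1 (0.94), Cox6b2 (0.69), Cox7a2l (0.61), Cycs (0.16), Sdhc (0.42), Sdhd (0.66), Uqcr10 (0.49) and Uqcr11 (0.024) to the P side. Quantile normalization did so for Cox6b1 (0.40), Cox6b2 (0.34), Cycs (0.16) and Uqcr10 (0.24), and voom gave −0.064 for Uqcrh. Without both P3 and P4, chosen after seeing the data, Cox6a2 was at −1.67, Uqcr11 at 0.12 and Uqcrh at −0.0071. With any 1 library left out, values spanned 0 for Atp5a1 (−0.56 to 0.48), Uqcrh (−0.93 to 0.95), Cox5b (−0.51 to 0.15), Cox6b1 (−1.13 to 0.99), Uqcr10 (−1.13 to 0.35), Uqcr11 (−1.99 to 0.83), Cox6a2 (−0.24 to 1.68), Cox7a2l (−0.86 to 0.39), Cox8a (−0.13 to 1.48) and Ndufa4 (−0.42 to 2.49). Of 42 named genes, 27 moved by over 1.5 times or past 0 in this way. The causes were not tested.

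Members with all NP libraries above all P libraries numbered 0 in complexes I and V with centred medians, and 2 in complex I, 0 in complex III, 1 in complex IV and 0 in complex V after quantile normalization, beside 0.812% and 2.53% of all genes. Members with P above NP then numbered 3 in complex I and 1 in complex V, and 2 in complex I, beside 12.1% and 4.62% of all genes. Without both P3 and P4, NP was above P in 1 member of complex II, 2 of complex III and 4 of complex V, beside 13.5% of all genes, and P above NP in 2 of complex I, 2 of complex IV and 1 of complex V, beside 3.69%. With any 1 library left out, NP was above P in 5 to 8 members of complex I, 0 to 1 of complex II, 1 to 2 of complex III, 0 to 2 of complex IV and 2 to 4 of complex V, beside 7.79% to 11.2% of all genes, and P above NP in 0 to 1 member of complex IV and 0 to 1 of complex V, beside 0.49% to 1.32%.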
